A study of Homo sapiens with 15 samples.

Results

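The mucins are a family of glycoproteins whose extracellular stretches carry dense chains of O-linked sugars, and 10 of their genes were followed here: MUC1, MUC3A, MUC4, MUC5AC, MUC5B, MUC6, MUC13, MUC16, MUC17 and MUC20. They were chosen by gene symbol, and all 10 were among the 25503 genes of the expression table. RNA was sequenced in 15 libraries from AsPC-1 and Capan-1, 2 established human cell lines of pancreatic ductal adenocarcinoma. In AsPC-1, 3 libraries came from cells given an siRNA against B4GALT5 (siB4GALT5), 3 from cells given an siRNA against B3GNT3 (siB3GNT3) and 3 from cells given the control sequence (siNC). In Capan-1, 3 libraries came from siB3GNT3 cells and 3 from siNC cells. Every library therefore came from transfected cells, and each condition was seen in 1 or both of these lines only. The series addresses MHC class I and the killing of tumour cells by CD8 T cells, and the mucins are proteins on which the product of B3GNT3 can act. Whether replicate libraries were grown as separate cultures is not stated in the labels, so the tests speak of the spread among these libraries, which may be technical.

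Mucins fall into proteins anchored in the cell membrane and proteins that are secreted and form gels. MUC1, MUC3A, MUC4, MUC13, MUC16, MUC17 and MUC20 belong to the first kind, and MUC5AC, MUC5B and MUC6 to the second. O-glycosylation starts with a single N-acetylgalactosamine on serine or threonine, to which galactose is added to give core 1. B3GNT3 adds N-acetylglucosamine to core 1 and so extends it, and B4GALT5 is a Golgi galactosyltransferase best known for making lactosylceramide. In the normal pancreas mucins line the ducts, and MUC4, MUC5AC and MUC16 are known for being switched on in pancreatic cancer. RNA sequencing measures the mRNA of the protein backbones and not their sugars, and in cells measured in bulk, fewer cells with an mRNA and less of it per cell cannot be told apart.

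The 10 genes lie on 5 chromosomes in the GENCODE 29 annotation of GRCh38, the build that the submitters' processing notes name. MUC6 (chromosome 11, 1012821 to 1036706, minus strand), MUC5AC (1157953 to 1201138, plus strand) and MUC5B (1223066 to 1262172, plus strand) form 1 cluster. MUC20 (chromosome 3, 195720882 to 195741123, plus strand) neighbours MUC4 (195746765 to 195812277, minus strand), and MUC13 (124905442 to 124953819, minus strand) lies elsewhere on that chromosome. MUC3A (chromosome 7, 100949555 to 100968346) and MUC17 (101020072 to 101058745) neighbour each other on the plus strand. MUC1 is on chromosome 1 (155185824 to 155192916, minus strand) and MUC16 on chromosome 19 (8848844 to 8981342, minus strand). Mucin exons hold long tandem repeats, and reads from a repeat or a near-identical paralog may have been split between genes by the authors' counting, so levels of MUC3A, MUC20 and the chromosome 11 cluster are less certain than those of genes with unique sequence.

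The 250 bases upstream of the transcription start are shown for the 4 mucins whose mRNA passed a test against siNC below, as listed by RefSeq for GRCh38.p14, where 6 of the 10 were matched by symbol. Capitals mark matches to 7 short motifs. These were the full cyclic AMP response element TGACGTCA, the AP-1 motif TGANTCA, the ATF4 composite motif TGATGNAA, the interferon regulatory factor core AANNGAAA, the STAT motif TTCNNNGAA and the GC box GGGCGG, each on both strands, and TATAAA on the coding strand. The MUC13 stretch is chr3:124934752-124935001, minus strand.
MUC13: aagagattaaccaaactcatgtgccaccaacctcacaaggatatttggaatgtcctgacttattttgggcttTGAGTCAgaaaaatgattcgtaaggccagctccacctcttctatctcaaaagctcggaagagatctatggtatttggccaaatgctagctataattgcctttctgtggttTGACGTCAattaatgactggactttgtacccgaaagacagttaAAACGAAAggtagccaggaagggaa
The MUC16 stretch is chr19:9065752-9066001, minus strand.
MUC16: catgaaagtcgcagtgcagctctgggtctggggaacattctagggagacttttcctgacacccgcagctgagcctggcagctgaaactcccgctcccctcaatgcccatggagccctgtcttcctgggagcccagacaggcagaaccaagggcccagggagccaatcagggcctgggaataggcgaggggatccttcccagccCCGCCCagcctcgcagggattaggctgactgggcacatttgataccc
The MUC4 stretch is chr3:195811930-195812179, minus strand.
MUC4: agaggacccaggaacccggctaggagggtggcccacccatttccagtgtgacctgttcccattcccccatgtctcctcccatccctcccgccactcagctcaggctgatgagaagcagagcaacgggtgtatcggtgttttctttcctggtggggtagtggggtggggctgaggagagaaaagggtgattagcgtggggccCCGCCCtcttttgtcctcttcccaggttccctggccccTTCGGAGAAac
The MUC1 stretch is chr1:155192916-155193165, minus strand.
MUC1: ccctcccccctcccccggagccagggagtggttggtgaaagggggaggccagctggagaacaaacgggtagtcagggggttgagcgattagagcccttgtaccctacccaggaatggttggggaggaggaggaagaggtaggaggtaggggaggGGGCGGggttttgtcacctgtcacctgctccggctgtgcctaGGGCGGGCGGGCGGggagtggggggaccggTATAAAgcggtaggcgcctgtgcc

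The MUC13 stretch holds the full cyclic AMP response element 68 bases before the start, an AP-1 motif 178 bases before it and an interferon regulatory factor core 25 bases before it. Of 35116 RefSeq promoters of the same length, 1.65% hold the first motif, 6.57% the second and 20.3% the third. MUC4 holds a STAT motif next to its start, at 11 bases, which 6.57% of promoters hold, and a GC box. MUC1 holds 4 GC boxes, 3 of them overlapping at their ends, and a TATA box 24 bases before its start; 42.6% of promoters hold a GC box and 6.80% a TATA box. The MUC16 stretch shown holds 1 GC box. A second RefSeq start of MUC16 has an AP-1 motif 136 bases before it, as has MUC17 at 93 bases, and MUC3A has 1 GC box. The ATF4 composite motif, found in 3.14% of promoters, was in none of the stretches of these 6 genes. RefSeq starts MUC4, MUC13 and MUC16 at other positions than GENCODE 29 does, so that the MUC4 and MUC13 stretches lie inside the GENCODE genes, and which start these cells use was not measured. The matches are a description of the letters only.

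Both lines expressed MUC1 and MUC13, and Capan-1 expressed 3 more mucins. With expression taken as 1 FPKM (fragments per kilobase of transcript, scaled to library size) or more in all 3 siNC libraries, 2 of the 10 mucins were expressed in AsPC-1 and 5 in Capan-1, where MUC5AC, MUC5B and MUC16 joined them. MUC3A, MUC4, MUC6, MUC17 and MUC20 stayed below 1 FPKM in all 15 libraries. At a threshold of 5 FPKM only MUC13 would count in AsPC-1, and MUC1, MUC5AC and MUC13 in Capan-1. The FPKM of low genes are whole multiples of the value of 1 fragment, which gave the fragments behind each value: for 14626 of 16314 genes tried, 89.7%, all values came out within 0.05 of a whole fragment, and so did those of all 10 mucins. Libraries differed little in depth, with 37500000 to 40700000 fragments each by estimate.

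In AsPC-1, mucin mRNA was almost wholly MUC13, a membrane mucin of the gut epithelium. MUC13 averaged 77.3 ± 1.57 FPKM in siNC cells (SD, n = 3), above 97.1% of all genes in the table. It made up 96.8% to 97.4% of the summed FPKM of the 10 mucins in the 9 AsPC-1 libraries. MUC1, the membrane mucin of ductal epithelium, followed at 1.31 ± 0.0696 FPKM. MUC17 at 0.285 ± 0.0754 and MUC3A at 0.284 ± 0.0530 FPKM, both membrane mucins of the intestine, could not be ranked against each other. MUC20 followed at 0.143 ± 0.0416, MUC5AC at 0.0869 ± 0.0474 and MUC16 at 0.0371 ± 0.0256 FPKM, and the libraries of MUC20 overlapped those of MUC5AC, as did those of MUC16. MUC5B, MUC4 and MUC6 rested on 18, 3 and 1 fragments in all 3 siNC libraries together. For MUC6, 0 fragments in a knockdown library allows a level of up to 0.00945 to 0.00975 FPKM, 3 fragments, a limit that covers counting error only.

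In Capan-1, 3 mucins shared most of the mRNA. MUC1 averaged 57.1 ± 2.81 FPKM in siNC cells and MUC5AC, a gel-forming mucin of the stomach surface, 34.4 ± 5.46 FPKM (SD, n = 3 each). MUC13 followed at 13.4 ± 0.271 FPKM, MUC16, the CA125 antigen, at 3.64 ± 0.635 and MUC5B, a gel-forming mucin of the airways, at 1.97 ± 0.161 FPKM. The libraries of these 5 did not overlap, so their order was the same in each siNC library. FPKM are per length: the 3 siNC libraries held 19077 fragments of the very long MUC16 mRNA but 4581 of MUC13. MUC4 averaged 0.219 FPKM from 436 fragments, and MUC20, MUC3A and MUC6 lay between 0.0264 and 0.0876 FPKM with overlapping libraries. MUC17 was at 0 in 5 of the 6 Capan-1 libraries and had 6 fragments in the other one.

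**Figure D1:**
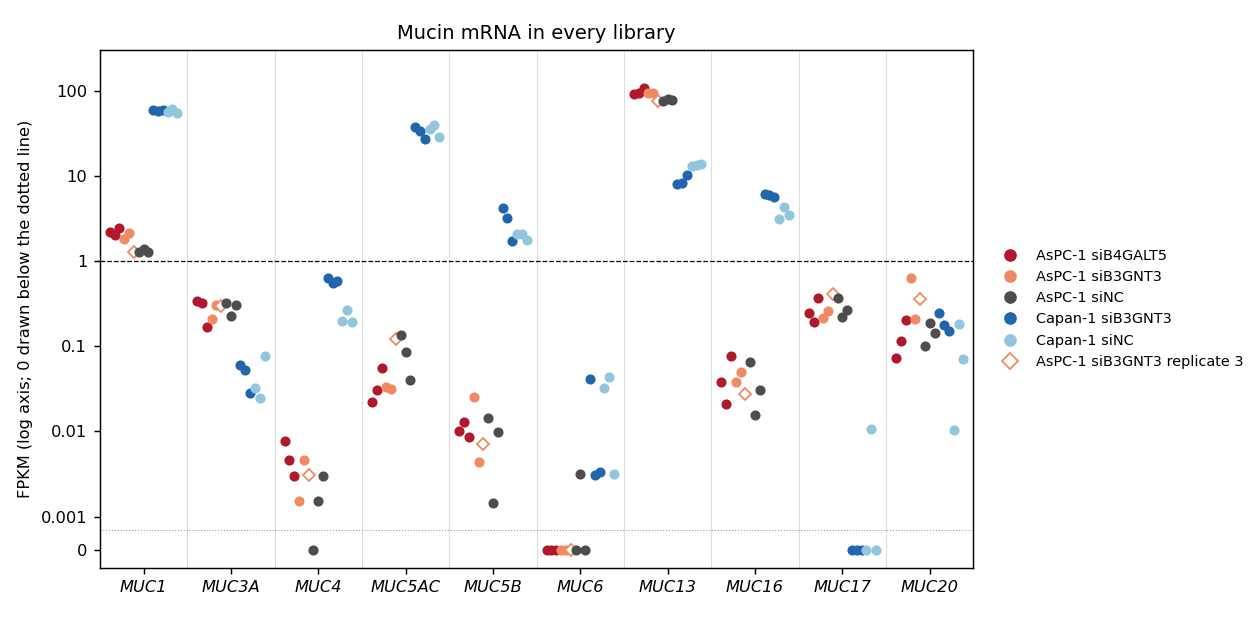
FPKM of the 10 mucins in each of the 15 libraries, on a log axis with values of 0 drawn below the dotted line; each point is 1 library, and the dashed line is 1 FPKM. MUC13 is the highest mucin in AsPC-1 at 75.6 to 106 FPKM and MUC1 in Capan-1 at 55.0 to 60.3 FPKM, and 5 mucins stay below the dashed line throughout.

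MUC1, MUC4, MUC5AC, MUC5B and MUC16 were lower in every AsPC-1 siNC library than in every Capan-1 siNC library, MUC3A, MUC13 and MUC17 were higher, and MUC6 and MUC20 overlapped. MUC1 was 1.26, 1.39 and 1.27 FPKM in AsPC-1 siNC libraries, against 56.1, 60.3 and 55.0 FPKM in Capan-1 siNC libraries, 43.6-fold lower. MUC13 was 75.6, 78.6 and 77.9 FPKM in AsPC-1, against 13.1, 13.5 and 13.6 FPKM in Capan-1, 5.76-fold higher. No library of either line came near those of the other. By limma on log2(FPKM + 1), a scale that understates the change of low genes, the difference was -4.65 for MUC1 (SE 0.05, adjusted p = 1.32e-12) and 2.44 for MUC13 (SE 0.04, adjusted p = 7.69e-12). Of all genes tested, 84.9% passed the same test at an adjusted p under 0.05, so a difference between these lines is the rule. MUC5AC was 395-fold lower in AsPC-1, MUC5B 232-fold lower and MUC16 98.1-fold lower by their means. These 3 passed the filter of 1 FPKM in 3 libraries through Capan-1 alone and had to differ, so no test is given for them. MUC17 and MUC3A ran the other way, with 484 fragments of MUC17 in AsPC-1 siNC libraries against 6 in Capan-1 siNC libraries, and 377 against 59 fragments of MUC3A. MUC4 had 3 fragments in AsPC-1 siNC libraries against 436 in Capan-1 siNC libraries.

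**Figure D2:**
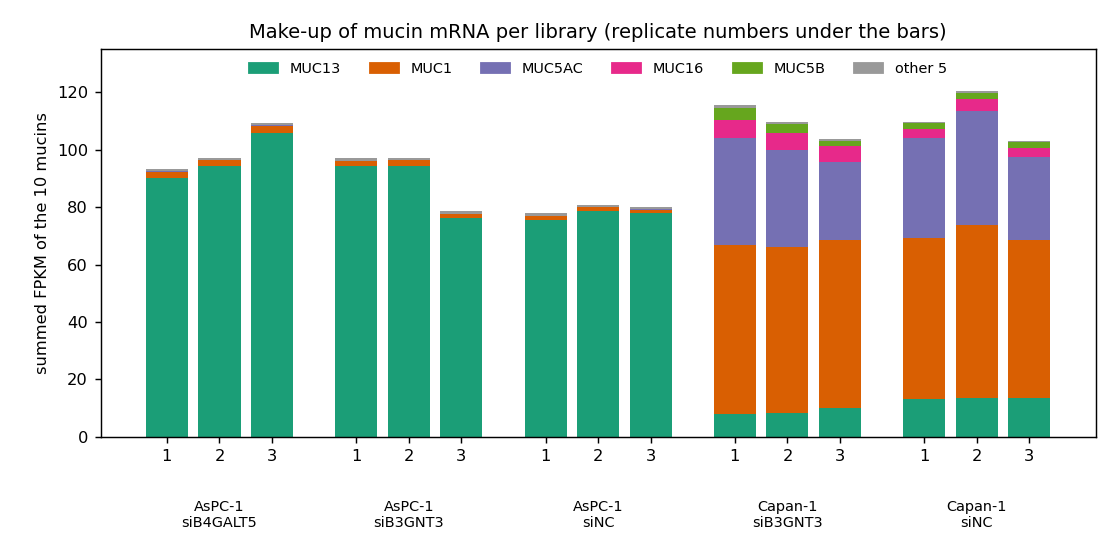
Summed FPKM of the 10 mucins in each library, stacked by gene, with replicate numbers under the bars. MUC13 fills 96.8% to 97.4% of each AsPC-1 bar, while MUC1 is the largest share of each Capan-1 bar at 50.1% to 56.3%.

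The cells were checked against markers of their labelled origin. AsPC-1 siNC cells had 6 of 8 ductal epithelial markers at 1 FPKM or more, with KRT7 and CDH1 below it, and Capan-1 siNC cells had 8 of 8. Acinar and islet markers summed to at most 0.0455 FPKM in the siNC libraries. Among markers of other tissues, LUM and CD68 reached 1 FPKM in both lines. COL1A1, CD14 and PECAM1 reached it in Capan-1 only.

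The siRNA targets themselves set 1 library apart. B4GALT5 was 8.70, 8.49 and 8.03 FPKM in siB4GALT5 libraries, against 38.7, 35.8 and 35.5 FPKM in AsPC-1 siNC libraries. B3GNT3 was 2.53 and 2.50 FPKM in replicates 1 and 2 of AsPC-1 siB3GNT3 but 24.2 FPKM in the library labelled replicate 3, against 22.5, 23.8 and 23.3 FPKM in siNC. In Capan-1 it was 1.32, 1.67 and 1.84 FPKM in siB3GNT3 libraries, against 13.3, 13.2 and 13.7 FPKM in siNC libraries. The library labelled AsPC-1 siB3GNT3 replicate 3 also lay close to siNC over all genes, at a root mean square log2 distance of 0.141 to 0.150, while its own replicates lay 0.453 to 0.465 away. Values are given with and without it below, except for the sums of cell markers. B3GNT3 itself was higher with siB4GALT5, at 32.4, 30.8 and 27.9 FPKM, than in these siNC libraries (log2 fold change 0.37, SE 0.07, limma adjusted p = 0.00188).

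Both mucins that AsPC-1 expresses were higher with siB4GALT5 than with siNC. Whether this or the changes with siB3GNT3 below come from loss of the target or from another effect of the siRNA was not tested. MUC13 was 90.2, 94.5 and 105.9 FPKM in siB4GALT5 libraries, against 75.6, 78.6 and 77.9 FPKM in siNC libraries. All 3 knockdown libraries lay above all controls, and the means of 96.9 ± 8.12 and 77.3 ± 1.57 FPKM (SD, n = 3 each) differ by 25.3% (log2 fold change 0.32, SE 0.06, limma adjusted p = 0.00362). MUC1 was 2.16, 1.99 and 2.44 FPKM in siB4GALT5 libraries, against 1.26, 1.39 and 1.27 FPKM in siNC libraries, again with no overlap. Its mean was 68.1% higher, at 2.20 ± 0.226 against 1.31 ± 0.0696 FPKM, from 1048 against 630 fragments (log2 fold change 0.47, SE 0.08, limma adjusted p = 0.00173). So 2 of 2 mucins that passed the filter were called higher, in a comparison where 56.5% of all 10601 genes tested were called and 34.1% were called higher. The split of calls depends on the scaling: 60.4% of called genes were higher as deposited, 48.0% under median-ratio scaling and 71.2% after rescaling to a common sum. MUC13 rose by 0.23 and MUC1 by 0.41 on the log2 scale under median-ratio scaling, still called. The 8 ductal markers summed to 1947 to 1976 FPKM in siB4GALT5 libraries, against 2046 to 2103 FPKM in siNC libraries, and the 4 leukocyte markers, of which CD68 reached 1 FPKM, to 48.4 to 51.5 against 38.9 to 40.6 FPKM. Their part in the mucin values was not tested.

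The other 8 mucins showed no difference with siB4GALT5 that passed a test, with no filter and a pseudocount of 0.1. MUC5AC had 15, 21 and 38 fragments in siB4GALT5 libraries, against 93, 58 and 28 fragments in siNC libraries. These overlap, and MUC5AC was not called (log2 fold change -0.43, SE 0.21, adjusted p = 0.202). MUC17 had 134, 108 and 207 fragments in siB4GALT5 libraries against 208, 123 and 153 in siNC libraries, and MUC3A 147, 139 and 75 against 143, 98 and 136. Neither shows a direction. MUC4 had 10 against 3 fragments, MUC5B 22 against 18, MUC16 234 against 194 and MUC20 38 against 42 over the 3 libraries of each group.

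Knockdown of B3GNT3 in AsPC-1 came with higher MUC13 and MUC1 in the 2 libraries in which the target was reduced. MUC13 was 94.3 and 94.1 FPKM in siB3GNT3 replicates 1 and 2 and 76.3 FPKM in the library labelled replicate 3, against 75.6, 78.6 and 77.9 FPKM in siNC libraries. MUC1 was 1.83 and 2.12 FPKM in replicates 1 and 2 and 1.29 FPKM in the library labelled replicate 3, against 1.26, 1.39 and 1.27 FPKM in siNC libraries. For both mucins replicates 1 and 2 lay above all siNC libraries, and the doubted library lay among the siNC libraries. As labelled, limma called 0 of 10504 genes in this comparison (0% of genes tested), with 1898 at an unadjusted p under 0.05. MUC13 then differed by 0.18 on the log2 scale (SE 0.10, adjusted p = 0.263) and MUC1 by 0.24 (SE 0.13, adjusted p = 0.271). Without replicate 3, both were called higher: MUC13 by 0.28 (SE 0.04, limma adjusted p = 0.000251), or 21.8% by its mean, and MUC1 by 0.36 (SE 0.09, limma adjusted p = 0.00564), or 50.7%. In that fit 62.6% of all genes tested were called and 37% were called higher, and 59.0% of the calls were higher, against 44.4% under median-ratio scaling and 69.5% after rescaling to a common sum. MUC13 kept a log2 fold change of 0.17 and MUC1 of 0.29 under median-ratio scaling without replicate 3, both called.

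MUC20, a membrane mucin that binds the receptor MET, had 62, 20 and 35 fragments in AsPC-1 siB3GNT3 libraries, against 10, 18 and 14 fragments in siNC libraries. All 3 siB3GNT3 libraries, the doubted one included, lay above all siNC libraries. It was not called (log2 fold change 0.96 with no filter and a pseudocount of 0.1, SE 0.36, adjusted p = 0.392; 0.98 and adjusted p = 0.148 without replicate 3). MUC5AC had 23 and 21 fragments in replicates 1 and 2 and 83 in the doubted library, against 93, 58 and 28 fragments in siNC libraries. It too was not called in either fit. MUC3A, MUC16 and MUC17 overlapped between the groups. The ductal markers summed to 1666 to 2076 FPKM in the 3 siB3GNT3 libraries, against 2046 to 2103 FPKM in siNC libraries. The leukocyte markers summed to 43.1 to 52.3 against 38.9 to 40.6 FPKM. Both siB3GNT3 ranges include the doubted library and are not given without it. The part of these markers was not tested here either.

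The knockdowns in AsPC-1 were also compared directly. MUC13 was higher by 0.14 with siB4GALT5 than with siB3GNT3 as labelled (95% confidence interval -0.14 to 0.41, adjusted p = 0.509), and MUC1 by 0.23 (-0.10 to 0.56, adjusted p = 0.354). Neither was called, in a comparison where 5.02% of genes tested were. Without siB3GNT3 replicate 3 the difference was 0.04 for MUC13 (-0.15 to 0.22, adjusted p = 0.767) and 0.11 for MUC1 (-0.14 to 0.35, adjusted p = 0.488), where 25.6% of genes were called. The intervals leave room for differences near the size of the changes against siNC, so the knockdowns are not shown to act alike on these genes. Both comparisons against siNC share the same 3 siNC libraries.

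**Figure D3:**
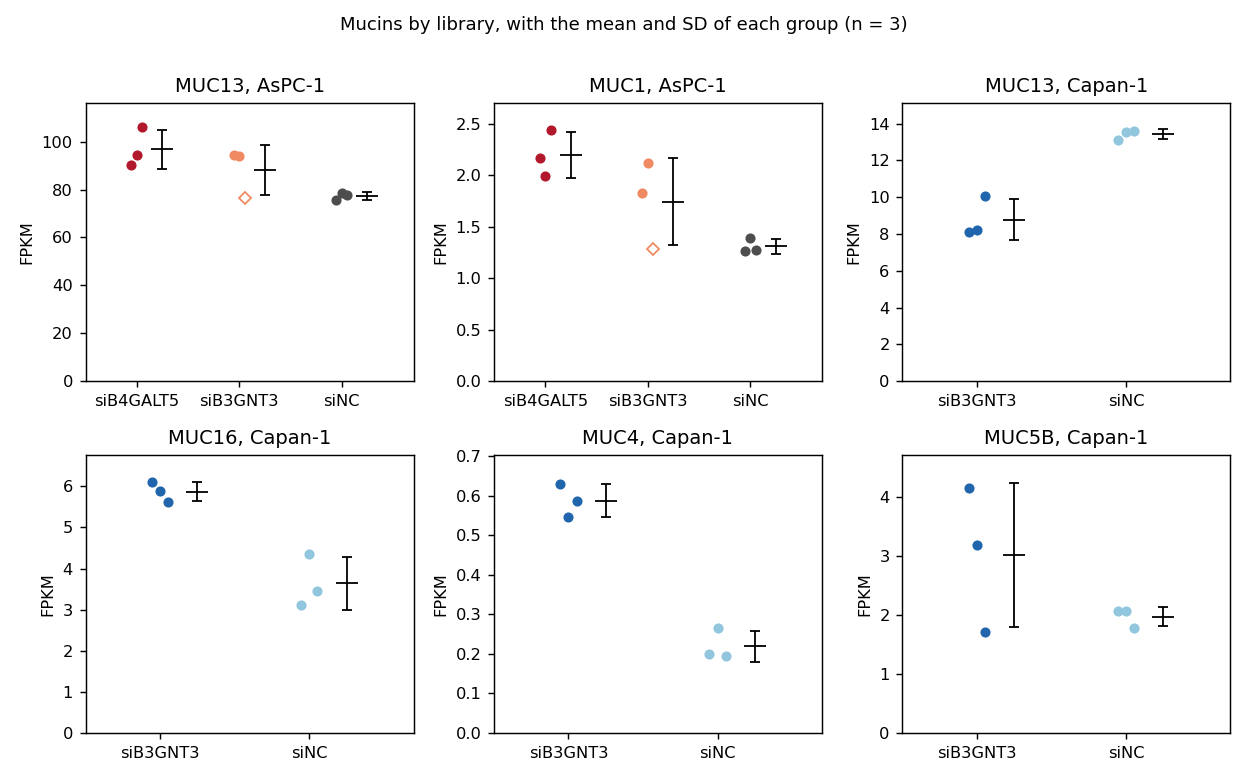
FPKM by library (points) with the mean and SD of each group of 3 (bars beside the points) for MUC13 and MUC1 in AsPC-1 and for MUC13, MUC16, MUC4 and MUC5B in Capan-1; the open diamond is the library labelled AsPC-1 siB3GNT3 replicate 3. MUC13 is higher in AsPC-1 and lower in Capan-1 siB3GNT3 libraries than in their siNC libraries once the diamond is set apart, and MUC5B overlaps in Capan-1 through 1 siB3GNT3 library.

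In Capan-1 MUC13 was lower and MUC16 higher with siB3GNT3 than with siNC, while MUC1 and MUC5AC, the most abundant mucins of this line, were not called. MUC13 was 8.09, 8.20 and 10.1 FPKM in siB3GNT3 libraries, against 13.1, 13.5 and 13.6 FPKM in siNC libraries. All 3 siB3GNT3 libraries lay below all siNC libraries. The means of 8.79 ± 1.12 and 13.4 ± 0.271 FPKM (SD, n = 3 each) differ by -34.5%, from 2968 against 4581 fragments (log2 fold change -0.57, SE 0.09, limma adjusted p = 0.00308). MUC16 was 6.11, 5.89 and 5.63 FPKM in siB3GNT3 libraries, against 3.11, 4.34 and 3.46 FPKM in siNC libraries. It lay above all siNC libraries in each siB3GNT3 library, was 61.5% higher by its mean, and rested on 30594 against 19077 fragments (log2 fold change 0.58, SE 0.10, limma adjusted p = 0.00544).

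MUC1 was 58.7, 57.9 and 58.4 FPKM in Capan-1 siB3GNT3 libraries, against 56.1, 60.3 and 55.0 FPKM in siNC libraries. Its values overlapped, and its log2 fold change of 0.03 had a 95% confidence interval of -0.11 to 0.17 (adjusted p = 0.72). MUC5AC was 37.4, 33.7 and 27.2 FPKM in siB3GNT3 libraries, against 35.0, 39.5 and 28.7 FPKM in siNC libraries, with a log2 fold change of -0.07 (-0.39 to 0.26, adjusted p = 0.736). MUC5B was 4.15, 3.18 and 1.72 FPKM in siB3GNT3 libraries, against 2.07, 2.06 and 1.78 FPKM in siNC libraries. Replicates 1 and 2 lay above all siNC libraries and replicate 3 below them, so MUC5B was not called with all libraries (log2 fold change 0.39, SE 0.20, adjusted p = 0.177). Without siB3GNT3 replicate 3 it was called (0.65, limma adjusted p = 0.000901). That fit called 3005 genes higher and 2710 lower, against 2152 and 1634 with all libraries. The target was reduced in replicate 3 as well (1.84 FPKM), so the result with all libraries is kept as the main one. Over all genes that library lay nearer to siNC than replicates 1 and 2 did. Its root mean square log2 distance to siNC libraries was 0.334 to 0.342, against 0.374 to 0.439 for theirs. It lay 0.312 and 0.271 from replicates 1 and 2, which were 0.180 apart. Of the 5 mucins tested in Capan-1, 1 was called higher and 1 lower; over all 11493 genes tested 32.9% were called, 18.7% higher and 14.2% lower.

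MUC4, a large membrane mucin that binds ERBB2, lay below the filter in Capan-1 but differed by a wide margin between its groups. It was 0.629, 0.547 and 0.587 FPKM in siB3GNT3 libraries, against 0.20, 0.265 and 0.194 FPKM in siNC libraries. Those are 418, 372 and 368 fragments in siB3GNT3 libraries against 131, 176 and 129 fragments in siNC libraries, a 2.68-fold difference with no overlap. With no filter and a pseudocount of 0.1, a setting added after its values had been seen, MUC4 was called (log2 fold change 1.11, SE 0.19, limma adjusted p = 0.0181), where 12.5% of 22473 genes were. In AsPC-1 the same mRNA had 10, 6 and 3 fragments over all libraries of siB4GALT5, siB3GNT3 and siNC, too few to show a change. MUC20 had 24, 18 and 14 fragments in Capan-1 siB3GNT3 libraries against 1, 18 and 7 in siNC libraries, and MUC3A 63 against 59 and MUC6 15 against 25 over the 3 libraries of each group; none of these was called. MUC17 had 0 fragments in the siB3GNT3 libraries, which allows a level of up to 0.00515 to 0.00559 FPKM.

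In the 6 Capan-1 libraries the summed level of the 8 ductal markers, MUC1 among them, was lower with siB3GNT3: it was 3176 to 4032 FPKM in siB3GNT3 libraries, against 4918 to 5149 FPKM in siNC libraries, with each at 1 FPKM or more in both. The 5 fibroblast markers summed to 79.2 to 83.8 FPKM in siB3GNT3 libraries, against 56.5 to 62.4 FPKM in siNC libraries, of which COL1A1 and LUM reached 1 FPKM. The 4 leukocyte markers, of which CD14 and CD68 reached 1 FPKM, summed to 174.7 to 216.5 FPKM in siB3GNT3 libraries, against 159.9 to 174.8 FPKM in siNC libraries. The part of any of these in the mucin values was not tested.

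**Figure D4:**
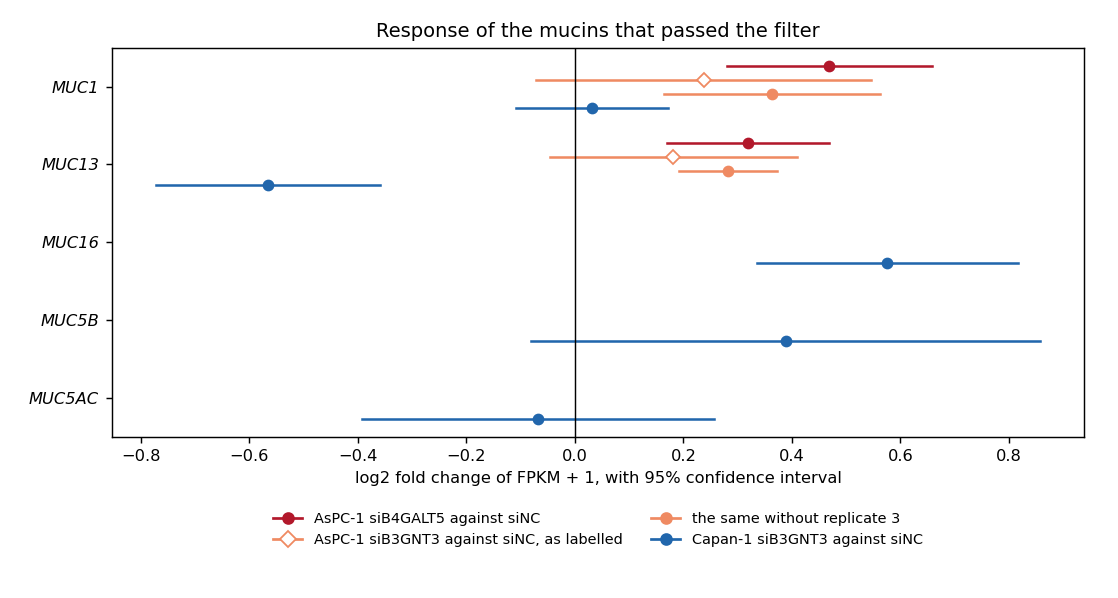
Log2 fold change of FPKM + 1 against siNC with 95% confidence intervals from limma for the mucins that passed the filter; the open diamond is the AsPC-1 siB3GNT3 comparison as labelled. MUC13 lies right of 0 in AsPC-1 (0.32 with siB4GALT5, 0.28 with siB3GNT3 without replicate 3) and left of it in Capan-1 (-0.57), and MUC16 lies at 0.58 in Capan-1.

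The response of MUC13 to siB3GNT3 thus had opposite signs in the lines, and the difference itself was tested as the interaction of line and siRNA. The response in AsPC-1 minus that in Capan-1 was 0.75 for MUC13 as labelled (SE 0.14, limma adjusted p = 0.00761), where 8.42% of genes tested were called, and 0.85 without AsPC-1 siB3GNT3 replicate 3 (SE 0.11, limma adjusted p = 0.000156), where 35.6% were. MUC1 differed by 0.21 as labelled (adjusted p = 0.385) and by 0.33 without AsPC-1 siB3GNT3 replicate 3 (SE 0.09, limma adjusted p = 0.0131). MUC16, MUC5B and MUC4 had at most 0.0762, 0.0254 and 0.00777 FPKM in AsPC-1, too little for a response to show on this scale, so no difference between the lines in their response is given.

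In the make-up of mucin mRNA in Capan-1, besides the higher level of MUC16 given above, MUC13 had a smaller share with siB3GNT3. It held 7.01%, 7.47% and 9.72% of the summed FPKM of the 10 mucins in siB3GNT3 libraries, against 11.97%, 11.2% and 13.2% in siNC libraries, without overlap. The sum itself overlapped, at 103.8 to 115 FPKM in siB3GNT3 libraries and 102.9 to 120.3 FPKM in siNC libraries. In AsPC-1 the sum was 93.1 to 109 FPKM with siB4GALT5 and 97.1 to 97.3 FPKM in siB3GNT3 replicates 1 and 2, against 77.8 to 80.7 FPKM with siNC, and 78.8 FPKM in the doubted library.

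Responses of the mucins were set beside each other over 14 libraries, leaving out the doubted one, as differences of log2(FPKM + 1) from the siNC mean of the same line. MUC13 and MUC16 ran against each other (Pearson r = -0.83), as did MUC5B and MUC13 (-0.71), while MUC1 ran with MUC13 (0.68) and MUC5B with MUC16 (0.69). MUC16, MUC5B and MUC5AC passed the filter through Capan-1 alone and had at most 0.135 FPKM in AsPC-1. Their correlations and nearest genes therefore rest mainly on siB3GNT3 against siNC in Capan-1 and show no shared response across the lines. Among the genes whose pattern was most like that of MUC13 were RNH1 and CNOT7, each with r = 0.99. For MUC1 they were FHIP2B (0.99), TCOF1 (0.98) and KDM2B (0.98), for MUC16 HOXA5, ZNF347 (0.98 each) and ZNF681 (0.97), and for MUC5B SUCNR1 (0.99), SCIRT and CCND2 (0.98 each). For MUC5AC the nearest were SLAIN1 (0.86), PCDHAC2 (0.85) and PCDH20 (0.83). These correlations describe 5 groups of related libraries, which share siNC means, and are given without a test.

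Genes that act on the same proteins were followed as 5 lists. Among transcription factors reported to act on mucin genes, 12 of 20 tested rose and 0 fell in Capan-1 siB3GNT3 against siNC, with a median log2 fold change of 0.44 against 0.02 over all genes tested. Over all genes 18.7% rose and 14.2% fell there. STAT3 rose by 0.71 (limma adjusted p = 0.000429) and SOX2 by 0.50 (limma adjusted p = 0.00153). With siB4GALT5 in AsPC-1, 10 of 17 rose and 3 fell (median 0.25 against 0.06), against 34.1% and 22.3% of all genes, led by KLF4 at 1.70, KLF5 at 0.74 and STAT3 at 0.65. With siB3GNT3 in AsPC-1 without replicate 3, 10 of 17 rose and 2 fell (median 0.40 against 0.07), against 37% and 25.7% of all genes; KLF4 rose by 0.98 and HIF1A fell by 0.75. As labelled, none of the genes of any list was called in that comparison.

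Of the enzymes that start and branch O-glycans, 2 of 15 tested rose and 5 fell in Capan-1 siB3GNT3 cells, where 14.2% of all genes fell. In AsPC-1 siB3GNT3 cells without replicate 3, 0 of 12 rose and 7 fell, where 25.7% of all genes fell. ST6GALNAC4, which caps short O-glycans with sialic acid, fell by 0.64 in Capan-1 and by 1.26 in AsPC-1. GALNT5, one of the enzymes that add the first sugar, fell by 0.80 in Capan-1 and by 0.35 in AsPC-1, while GALNT7 rose by 0.39 in Capan-1 and GALNT2 fell by 0.46 in AsPC-1. With siB4GALT5, 1 of 13 rose and 3 fell, a share of falls near the 22.3% of all genes; ST3GAL1, which sialylates core 1, rose by 0.70, GALNT12 fell by 0.64 and GALNT5 by 0.38. The medians were -0.21, -0.20 and -0.12 in these 3 comparisons, against 0.02, 0.07 and 0.06 over all genes.

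Of the genes of mucus cells and their granules, 1 of 11 tested was higher and 10 lower in AsPC-1 siNC than in Capan-1 siNC cells. AGR2, the disulfide isomerase needed to fold gel-forming mucins, was lower by a log2 fold change of -6.78, the mucin-associated FCGBP by -2.31 and the stress transducer CREB3L1 by -3.88. Over all genes tested there, 37.9% were higher and 47% lower. The count cannot be read against these shares, because 6 of the list passed the filter in the AsPC-1 siB4GALT5 fit and 12 in the Capan-1 fit. Genes that entered through Capan-1 alone had to be lower in AsPC-1. AGR2 and FCGBP also passed the filter within AsPC-1, in siB3GNT3 against siNC without replicate 3. For CREB3L1 no such test is given here, so its -3.88 may have been fixed by the filter. In Capan-1 siB3GNT3 cells 1 of 12 rose (CREB3L1, 0.57) and 4 fell, among them FCGBP (-0.43) and VAMP8 (-0.28); the 5 calls compare with 32.9% of all genes. With siB4GALT5, 3 of 6 fell, against 22.3% of all genes, among them VAMP8 by 0.45 and PDIA3 by 0.17. With siB3GNT3 in AsPC-1 without replicate 3, VAMP8 fell by 0.92 and FCGBP and AGR2 rose by 0.45 and 0.33, so 3 of 5 were called, against 62.6% of all genes.

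Among 20 listed proteins that bind or shed mucins, 2 of 17 tested rose and 6 fell with siB4GALT5, 4 of 17 rose and 6 fell with siB3GNT3 in AsPC-1 without replicate 3, and 2 of 18 rose and 2 fell with siB3GNT3 in Capan-1. Over all genes 56.5%, 62.6% and 32.9% were called in either direction, and the shares of the list called in either direction do not lie above these. Over all genes 34.1%, 37% and 18.7% rose, and the list lay below that each time. Over all genes 22.3%, 25.7% and 14.2% fell. The list lay above that share of falls in the AsPC-1 comparisons and below it in Capan-1. SLC9A3R1, a scaffold at the membrane, fell by 0.89 with siB4GALT5, where MMP14, a protease of the cell surface, rose by 0.82 and EGFR by 0.50. ERBB3 rose by 0.77 with siB3GNT3 in AsPC-1 without replicate 3, where CTNNB1, which binds the tail of MUC1, fell by 0.53 and the galectin LGALS1 by 0.48. In Capan-1 siB3GNT3 cells EZR fell by 0.55 and CEACAM6 by 0.56, and LGALS3, a galectin that binds MUC1, rose by 0.26. Of the other mucins and mucin-like proteins only CD164 and PODXL could be tested in AsPC-1; CD164, a sialomucin, rose by 0.85 with siB4GALT5 and by 0.28 with siB3GNT3 without replicate 3, and PODXL fell by 0.86 with siB4GALT5. In Capan-1 siB3GNT3 cells none of 3 tested was called.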

How the data were processed

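The authors deposited the expression values as FPKM in 1 table that covers all 15 libraries. Per the submitters' processing notes, Bowtie2, RSEM 1.3.1 and DESeq2 1.4.5 were used with GRCh38; the step each served and the gene annotation are not given in the sources used here, nor is strand. Values were taken as deposited. A multi-mapping read shared by estimation, as RSEM does, can move fragments between similar mucins.

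Differences were tested on log2(FPKM + 1) with limma 3.58.1 in R 4.3.3, its variances trended on intensity. Genes entered at 1 FPKM or more in at least 3 libraries of the fit; p-values were adjusted by Benjamini-Hochberg over all genes tested and calls made at an adjusted p under 0.05. Each fit held only the groups compared (6 libraries, or 12 for the interaction). Only the comparison of 3 against 3 libraries within a line was tried on simulated data, drawn from the siNC libraries of that line. Fragments per value came from the steps of low FPKM; the number of fragments per library is an estimate from 594 single-transcript genes of GENCODE 29. Fragments are not independent molecules, so floors cover counting error only. Names were those of all 10 mucins, both targets, up to 3 called genes per list with the smallest p and the 3 genes nearest in pattern; a few genes that this rule picks are not reported here. The mucins and the lists were chosen with earlier results of these data known, and the lists come from general knowledge. Alternatives were pseudocount 0.1, no filter, a filter of 5 FPKM, 2 other scalings, no trend, larger fits, a replicate block, a threshold of 2-fold and each library left out; 4 more were added after the data were seen, which pair no filter with pseudocount 0.1 or leave out AsPC-1 siB3GNT3 replicate 3 together with another change. Figures were drawn with matplotlib 3.10.9 in Python 3.11.15 with numpy 2.4.6 and pandas 2.3.3.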

Additional observations from a re-analysis of the deposited data

Results flagged for a closer look

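The response of MUC13 to siB3GNT3 differed between the lines by a test of the difference itself: AsPC-1 minus Capan-1 was 0.75 (SE 0.14, limma adjusted p = 0.00761) as labelled and 0.85 (SE 0.11, limma adjusted p = 0.000156) without AsPC-1 siB3GNT3 replicate 3. MUC1 differed by 0.33 (limma adjusted p = 0.0131) without that library only, and by 0.21 (adjusted p = 0.385) with it. Groups of 3 libraries are too small for a test of single outlying libraries.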

How the results depend on the processing

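No result changed direction past the threshold. With siB4GALT5 against siNC, 2 mucins and 5986 genes were called; a filter of 5 FPKM left 1 mucin, since MUC1 is below it, and a threshold of 2-fold left 0 mucins and 440 genes. Leaving out 1 library gave 2 mucins and 4805 to 6667 genes. With siB3GNT3 in AsPC-1, 0 and 0 were called as labelled. Without replicate 3 these were 2 mucins each time and 6533 genes, 5563 in the fit of 14 libraries, 6439 with no filter and pseudocount 0.1, 6577 under median-ratio scaling and 6797 after rescaling to a common sum; leaving out any 1 library spanned 0 to 2 mucins and 0 to 6533 genes. In Capan-1, 2 mucins and 3786 genes were called, 0 and 209 at 2-fold, and 2 to 3 mucins and 2069 to 5715 genes with 1 library left out, the most without siB3GNT3 replicate 3. Between the AsPC-1 knockdowns no mucin was called in any setting; 534 genes were, against 179 with no filter, 205 with pseudocount 0.1 too, 1716 in a fit of all 9 AsPC-1 libraries, 2450 in one of all 15, 3505 in one of 14, 86 at 2-fold, and 23 to 2693 with 1 library left out. Without replicate 3 the other settings gave 1751 (no filter, pseudocount 0.1), 2724 (median-ratio scaling) and 2678 genes (common sum). Between the siNC groups 5 mucins and 9891 genes were called. Of the 5, MUC5AC, MUC5B and MUC16 entered through Capan-1 alone and had to differ. With no filter 8 mucins were called at either pseudocount. Over all genes, 5078 were then called higher and 7365 lower, or 5146 and 7565 at a pseudocount of 0.1. With a filter of 5 FPKM 3 mucins were called, and at 2-fold 3064 genes. With 1 library left out, 2 to 5 mucins and 8368 to 9288 genes were called. After rescaling to a common sum the median over all genes was -0.23, against -0.09 as deposited. For the interaction, 2 mucins and 1022 genes were called (MUC13, and MUC16, which entered through Capan-1 alone), 1 mucin with pseudocount 0.1, 0 and 157 at 2-fold, 546 genes with no filter and pseudocount 0.1, 4009 in the fit of 14 libraries, 3697, 4275 and 4451 without replicate 3 with no filter and pseudocount 0.1, median-ratio scaling and a common sum, and 1 to 3 mucins and 501 to 4316 genes with 1 library left out. At 5 FPKM, 1 mucin was expressed in AsPC-1 and 3 in Capan-1. The cause of these moves was not tested, save that leaving out a library or raising the filter lowers what can be tested.

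Deviations of same-numbered libraries went together weakly at most, with r of -0.04 to 0.13, above 0.1 in 1 of 12 pairs. The best match carried the same number in 7 of the 12. Whether replicate numbers pair the libraries cannot be settled from these values. With the replicate block, 71 genes were called between the AsPC-1 knockdowns, and no mucin changed its call in any comparison.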

Other observations

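MUC12-AS1, a transcript antisense to the mucin gene MUC12, was picked out after its values had been seen. It was 1.09, 0.316 and 0.311 FPKM in AsPC-1 siB4GALT5 libraries, against 3.30, 4.47 and 3.04 FPKM in siNC libraries. These values rested on 27 against 173 fragments. In siB3GNT3 libraries its level was 0.931 and 0.897 FPKM in replicates 1 and 2 and 3.06 FPKM in the library labelled replicate 3. MUC12-AS1 would not have met the filter without the siNC libraries, where it is high. The filter thus favoured a lower level with the knockdowns, so no test is given for it. Since use of strand in the counting is not given, reads of MUC12-AS1 and of MUC12 cannot be told apart. In Capan-1 it had 38 fragments in siB3GNT3 libraries against 44 in siNC libraries.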
